A study of Mus musculus with 6 samples.

Results

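The collagen chains are the genes named Col, a number, the letter a and a second number. They were taken as every transcript cluster of the array that the platform annotation assigns to a single symbol of that form, and 39 clusters met the rule, of 14996 with a single symbol and 23332 in all. A transcript cluster is the set of exons the array assigns to 1 locus. Each of the 39 symbols had 1 cluster. Col6a4, Col6a5, Col19a1, Col22a1 and Col28a1 had no cluster with a single symbol.

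The samples were keratinocytes of the mouse, the cells that build the epidermis, in 3 lines made from newborn animals. All were immortalized with SV40 large T antigen, which inactivates the tumour suppressors p53 and Rb. MK116 came from wild-type mice, MK546 from mice without integrin α3, and the rescue line was MK546 carrying a stably transfected human α3. The sources used here do not give its promoter, nor whether any of the lines is 1 clone. Integrin α3β1 is a receptor through which keratinocytes hold on to laminin. Each line was profiled on 2 Affymetrix Mouse Exon 1.0 ST arrays, 6 in all. All were grown at 33 °C and 8% CO2 in medium with 4% serum, 0.05 mM calcium chloride and 10 units/ml interferon-γ. The medium also held 10 ng/ml EGF, 0.4 μg/ml hydrocortisone and 5 μg/ml insulin, and cells sat on plates coated with denatured rat tail collagen at 30 μg/ml. With 2 arrays of 1 line per group, the p-values below measure the spread between arrays, and any other difference between the lines cannot be told apart from that in α3.

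Collagens are trimers of α chains wound into a triple helix, and the chains of a trimer come from separate genes. Chains are hydroxylated on proline and lysine and folded in the endoplasmic reticulum, secreted, trimmed and cross-linked. Type IV collagen forms the network of basement membranes, on which basal keratinocytes sit. Type XVII is a transmembrane collagen of the hemidesmosome, and type VII makes the anchoring fibrils that tie the basement membrane to the dermis. The fibrillar types, such as I and III, are made mainly by dermal fibroblasts.

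Values are PLIER intensities, a summary of the probes of a cluster on a linear scale, given as mean ± SD (n = 2 arrays). Differences are on the scale of log2(intensity + 16), given ± SE, and understate the change of dim genes. A gene was called at a limma adjusted p under 0.05 over all 23332 clusters. Intensities were compared for the same gene between lines, not between genes.

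Itga3, the targeted gene, gave 6364 and 6287 in wild type, 997 and 907 in null, and 1218 and 1221 in rescue. Mouse probes may read the human construct only in part, so these values check the null and rescue labels only in part. Of 10 keratinocyte markers, all measured, the summed intensity was 52611 to 54730 in wild type, 51807 to 54319 in null and 47798 to 52450 in rescue, and none was below 16 on any array. In null minus wild type 3 of the 10 were called higher and 0 lower (30%, beside 19.5% of clusters with a single symbol). In rescue minus null 1 was higher and 4 lower (50%, beside 18.4%). Of 12 fibroblast markers 11 were measured, with sums of 1426 to 1684, 612 to 629 and 656 to 679. Vim accounted for the gap, since the other 10 summed to 484 to 487 in wild type, 475 to 481 in null and 498 to 510 in rescue. Among the 7 endothelial markers the sums were 278 to 297, 270 to 279 and 272 to 300. No marker of these lists was at 0. In RNA from whole cultures, fewer cells of a type and less RNA per cell cannot be told apart.

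In the null line, Col8a1 fell to the level of dim clusters, the basement membrane genes Col4a1 and Col7a1 fell to 44.5% and 43.3% of wild type, Col12a1 and Col4a5 fell, and Col17a1 rose. In all, 6 of 39 chains were called (15.4%), 1 higher and 5 lower, against 15.3% of all clusters, and 19.5% of clusters with a single symbol, so the share of chains that changed was near that of the array as a whole. By direction, 8.49% of all clusters were called higher and 6.84% lower. The median difference over the 39 chains was -0.11, beside -0.01 over all clusters, with 33 chains below 0. Rescaling moved both medians. With quantile normalization that of the chains was -0.06 (27 chains below 0), beside 0.02 over all clusters. With median centring it was -0.03 (24 below 0), beside 0.07 over all clusters. The 33 chains not called lay between -0.31 and 0.54. Of the called chains, 3 differed by 2-fold or more, as did 2.72% of all clusters. The 6 became 3 when wild-type array 2 was left out.

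In the rescue line set against the null line it was made from, Col4a1, Col4a2, Col7a1 and Col12a1 rose and Col17a1 fell. These 5 of 39 chains (12.8%) stood beside 15.4% of all clusters called and 18.4% of those with a single symbol, with 9.75% of all clusters called higher and 5.62% lower. The median over the chains was -0.11, beside 0.02 over all clusters, and went to -0.20 with quantile normalization and -0.23 with median centring, beside -0.04 and -0.10 over all clusters. None of the 5 differed by 2-fold or more on the log scale, as 2.33% of all clusters did. The 5 became 3 with median centring and 2 without null array 1, null array 2 or rescue array 2.

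Against wild type, the rescue line had 9 chains called of 39 (23.1%), 1 higher (Col4a2) and 8 lower, beside 15.4% of all clusters, 10.4% higher and 5.05% lower, and 18.5% of clusters with a single symbol. Of them only Col8a1 differed by 2-fold or more on the log scale, as 3.17% of all clusters did. The median over the chains was -0.22, beside 0.03 over all clusters. Apart from Col8a1, the 7 lower chains differed by -0.38 to -0.63, and the count fell to 1 when either wild-type array was left out, to 2 without the first rescue array and to 4 without any of the other 3 arrays. The 3 comparisons share arrays, so their values are given side by side and not as separate evidence. The plot of differences by gene shows that most chains lay within 0.3 of 0 in the first comparison.

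**Figure D1:**
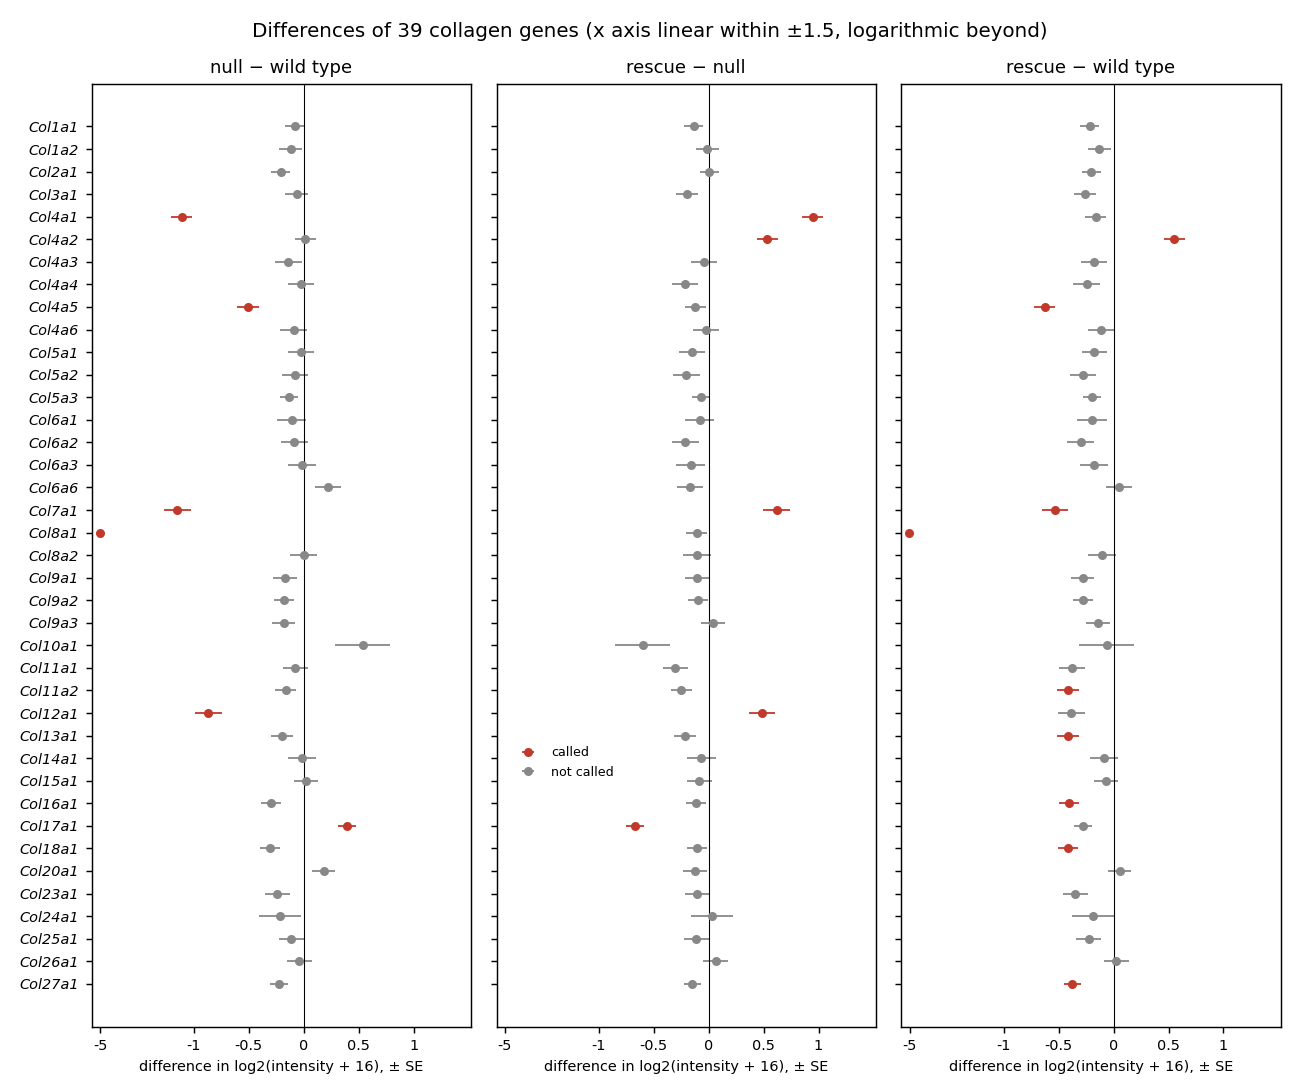
Differences of the 39 collagen genes in the 3 comparisons, in log2(intensity + 16), with bars of ± 1 SE; the x axis is linear within 1.5 of 0 and logarithmic beyond, and red points were called by limma at an adjusted p under 0.05. Col8a1 lies near -5 in both comparisons with wild type, and Col4a1, Col7a1 and Col12a1 lie left of 0 for null minus wild type and right of 0 for rescue minus null.

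The type IV chains were examined first, since they build the basement membrane network. Their genes lie in 3 pairs, each transcribed outward from a shared start region, and the chains Col4a1 and Col4a2 assemble into the trimer found in nearly all basement membranes. The promoter windows of this pair are shown because the genes of the pair behaved differently in the null line. Each runs from 250 bases before to 50 bases after the start site in RefSeq (GRCm38.p6), Col4a1 at chr8:11312777-11313076 on the minus strand and Col4a2 at chr8:11312555-11312854 on the plus strand. The capitals mark the 78 bases that the windows share, read on opposite strands, and the start sites are 21 bases apart.
Col4a1: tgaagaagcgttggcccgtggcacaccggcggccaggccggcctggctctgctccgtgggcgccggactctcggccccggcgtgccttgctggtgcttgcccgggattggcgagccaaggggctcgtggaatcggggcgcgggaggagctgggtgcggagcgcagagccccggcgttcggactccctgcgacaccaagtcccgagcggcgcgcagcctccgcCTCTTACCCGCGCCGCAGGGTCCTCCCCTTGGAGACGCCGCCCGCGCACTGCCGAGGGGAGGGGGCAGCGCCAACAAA
Col4a2: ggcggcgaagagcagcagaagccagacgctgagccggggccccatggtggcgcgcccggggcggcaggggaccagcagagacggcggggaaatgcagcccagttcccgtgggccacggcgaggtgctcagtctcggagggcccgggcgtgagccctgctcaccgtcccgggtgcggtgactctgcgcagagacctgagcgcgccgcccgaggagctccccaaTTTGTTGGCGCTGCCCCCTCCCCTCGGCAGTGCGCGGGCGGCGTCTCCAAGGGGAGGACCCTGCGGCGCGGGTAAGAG

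Col4a1 (transcript cluster 6980364) gave 438 and 483 in wild type, 217 and 193 in null, and 391 and 429 in rescue. The null line was the low group, and its arrays lay below all others. The null level of 205 ± 16.5 was 44.5% of the wild-type level of 461 ± 31.5, a difference of -1.11 ± 0.10 (limma adjusted p = 0.00133). The rescue level of 410 ± 26.8 stood 0.95 ± 0.10 above null (adjusted p = 0.00321) and -0.16 ± 0.10 from wild type (adjusted p = 0.332). The first pair of calls stood in every alternative fit and with any array left out.

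Col4a2 (cluster 6974003) did not share the low level in the null line. It gave 523 and 586 in wild type, 567 and 552 in null, and 763 and 877 in rescue. Wild-type and null values overlapped, with a difference of 0.02 ± 0.10 (adjusted p = 0.947), and the rescue arrays lay above both. The rescue level of 820 ± 80.4 was 1.47 times the null level, a difference of 0.54 ± 0.10 (adjusted p = 0.0178), and 0.55 ± 0.10 above wild type (adjusted p = 0.0162). The call against null was lost with median centring (adjusted p = 0.0525), without null array 1 (0.0778), null array 2 (0.0883) or rescue array 2 (0.0584), and the call against wild type without wild-type array 1 (0.0938), wild-type array 2 (0.0576) or rescue array 2 (0.0574).

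The ratio of Col4a1 to Col4a2 intensity within an array was 0.839 and 0.825 in wild type, 0.381 and 0.350 in null, and 0.512 and 0.489 in rescue. The 3 lines did not overlap, so Col4a1 and Col4a2 changed unequally between them. In log2 the ratio differed by -1.19 between null and wild type and by 0.45 between rescue and null. The exact two-sided permutation p was 0.333 for each, which is the smallest that 2 arrays against 2 can give.

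The genes around this pair rose in the rescue line as well. Of the 10 nearest genes with a cluster, 5 on each side, 7 were called higher in rescue minus null and none lower. That was 70%, beside 18.4% of clusters with a single symbol, and the median difference of the 10 was 0.86. In null minus wild type none of the 10 was called (range -0.28 to 0.23), beside 19.5% of clusters with a single symbol. On one side Rab20, the nearest measured gene after Col4a2, rose from 300 ± 6.36 to 562 ± 30.3. Naxd, which encodes a repair enzyme for damaged NAD(P)H, rose from 852 ± 57.1 to 2259 ± 220. On the other side Abhd13 rose from 1657 ± 124 to 3610 ± 180 and Lig4, a DNA ligase of end joining, from 320 ± 48.1 to 798 ± 33.6. Myo16, the nearest measured gene on the Col4a1 side, stood at 58.2 ± 1.04 and 55.7 ± 8.03. The other neighbours that rose were Tnfsf13b (0.81), Ing1 (0.84) and Ankrd10 (1.28), and the call of Tnfsf13b was lost without null array 2 (0.0605) or rescue array 1 (0.0563). The 7 that rose spanned 0.81 to 1.39, a range that holds Col4a1 at 0.95 and lies above Col4a2 at 0.54, and the other 3 lay between -0.11 and -0.06. Those 3, Myo16, Fam155a and 1700016D06Rik, were dim, with means over all arrays of 62.7, 109 and 33.6. Tnfsf13b, which rose, had a mean of 77.9. The neighbours' part in the result was not tested. The fall of Col4a1 in the null line had no counterpart among the 10 neighbours or in Col4a2, as the plot of the locus shows.

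**Figure D2:**
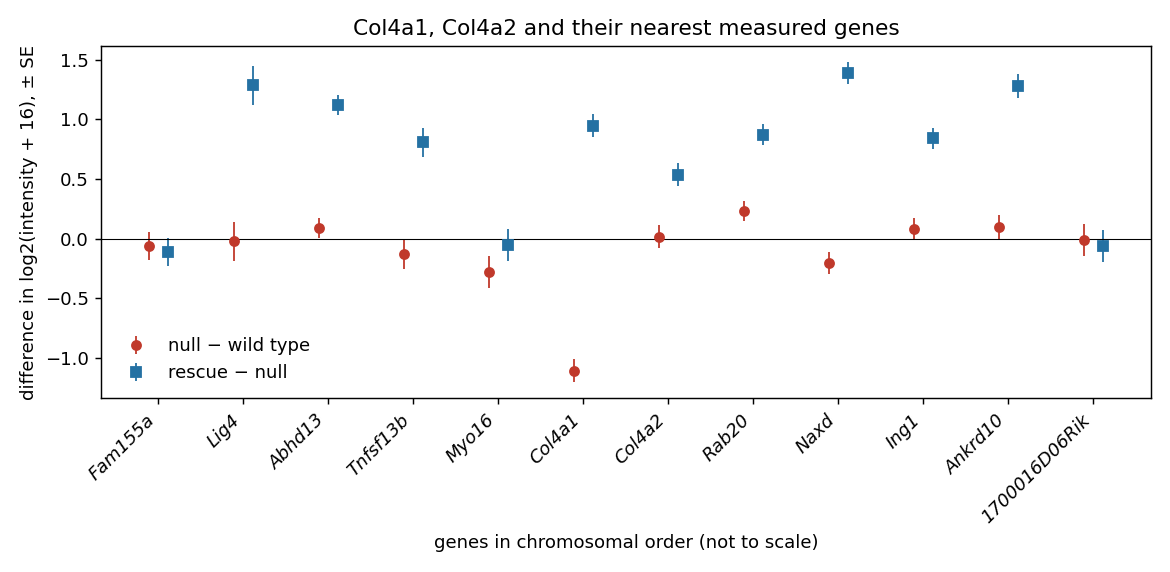
Differences in log2(intensity + 16), with bars of ± 1 SE, for Col4a1, Col4a2 and the 5 nearest measured genes on each side, in chromosomal order without scale. In rescue minus null (squares) 7 of the 10 neighbours stand between 0.81 and 1.39, and in null minus wild type (circles) Col4a1 alone lies near -1.11.

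Col4a5 (cluster 7014178) and Col4a6 (7019833) form the pair on the X chromosome, whose chains are found together in the epidermal basement membrane. Col4a5 gave 110 and 109 in wild type, 73.7 and 71.1 in null, and 64.9 and 65.8 in rescue. Both lines of the MK546 background were low and lay apart from wild type. The difference was -0.51 ± 0.10 for null (adjusted p = 0.0204) and -0.63 ± 0.10 for rescue (adjusted p = 0.0110). The null call was lost without either array of wild type (0.114 and 0.102) or of null (0.0915 and 0.103), and the rescue call without either wild-type array or rescue array 1 (highest adjusted p = 0.0735). Col4a6 lay between 45.6 and 54.0 on all 6 arrays and was not called. Of the 10 genes nearest this pair, 2 were called lower in null minus wild type, Psmd10 (-0.48) and Atg4a (-0.30). That was 20%, beside 19.5% of clusters with a single symbol. The calls of Psmd10 and Atg4a were both lost without any 1 of the wild-type or null arrays. That of Atg4a was also lost without either rescue array and with median centring (limma adjusted p = 0.138). It was lost as well without the variance trend (0.110), with only those 2 lines fitted (0.0663) and with replicate number as a block (0.0713).

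Col4a3 (cluster 6751069) and Col4a4 (6760194), whose chains build the basement membrane of the kidney glomerulus together with that of Col4a5, were not called in any comparison. Col4a3 ranged from 45.5 to 59.5 over the 6 arrays and Col4a4 from 55.2 to 75.5. Beside them Irs1, the insulin receptor substrate gene, rose from 77.3 ± 2.28 to 422 ± 30.9 in null and stood at 627 ± 47.5 in rescue. It was the only one of the 10 genes nearest this pair called in null minus wild type (10%, beside 19.5% of clusters with a single symbol).

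Col7a1 and Col17a1, the chains of anchoring fibril and hemidesmosome, moved in opposite directions in null minus wild type and in rescue minus null. Their promoter windows are shown with that of Col8a1, the chain with the largest difference. The windows are chr9:108953336-108953635 on the plus strand for Col7a1, chr19:47691993-47692292 on the minus strand for Col17a1 and chr16:57754688-57754987 on the minus strand for Col8a1, in RefSeq GRCm38.p6. Capitals mark every match to 4 short motifs on either strand, the AP-1 site TGANTCA, the GC box GGGCGG, the CCAAT box and the TATA box TATAAA.
Col7a1: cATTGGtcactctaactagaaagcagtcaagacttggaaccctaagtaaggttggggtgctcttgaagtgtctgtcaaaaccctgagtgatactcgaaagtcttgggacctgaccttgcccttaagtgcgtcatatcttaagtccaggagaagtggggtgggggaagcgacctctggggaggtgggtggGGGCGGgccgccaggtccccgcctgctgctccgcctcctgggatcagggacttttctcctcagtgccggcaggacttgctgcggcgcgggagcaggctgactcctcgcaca
Col17a1: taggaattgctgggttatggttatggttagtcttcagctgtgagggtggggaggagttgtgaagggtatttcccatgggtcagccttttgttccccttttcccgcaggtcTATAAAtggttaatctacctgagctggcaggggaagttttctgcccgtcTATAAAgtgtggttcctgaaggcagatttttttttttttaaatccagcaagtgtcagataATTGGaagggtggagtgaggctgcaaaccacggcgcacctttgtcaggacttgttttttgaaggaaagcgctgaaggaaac
Col8a1: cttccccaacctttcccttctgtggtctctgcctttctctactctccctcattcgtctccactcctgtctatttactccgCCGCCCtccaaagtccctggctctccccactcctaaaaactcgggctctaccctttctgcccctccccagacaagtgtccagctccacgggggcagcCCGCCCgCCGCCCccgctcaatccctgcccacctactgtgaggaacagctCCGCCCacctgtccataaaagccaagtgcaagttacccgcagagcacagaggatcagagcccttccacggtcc

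Among these windows the Col8a1 promoter held 4 GC boxes, that of Col7a1 held 1 with 1 CCAAT box, and that of Col17a1 held 2 TATA boxes and 1 CCAAT box. Of 32851 RefSeq promoters, 35.7% held a GC box, 37.4% a CCAAT box, 13.6% a TATA box and 7.81% an AP-1 site. RefSeq promoters were at hand for 31 of the 39 chains, in 34 windows, of which 21 held a GC box, 12 a CCAAT box, 5 a TATA box and 1 an AP-1 site. A match describes letters in the window and not a site in use.

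Col7a1 (cluster 6992378) gave 560 and 467 in wild type, 242 and 203 in null, and 343 and 355 in rescue. The lines did not overlap, with null lowest and rescue between. The null level of 223 ± 27.0 was 43.3% of the wild-type level of 514 ± 65.5, a difference of -1.15 ± 0.12 (adjusted p = 0.00265) that stood in every fit. The rescue line was 0.62 ± 0.12 above null (adjusted p = 0.0223) and -0.53 ± 0.12 below wild type (adjusted p = 0.0361). Each of these calls was lost when any 1 array of the lines it compared was left out, with an adjusted p of 0.0504 to 0.102 for the first and 0.0693 to 0.161 for the second, which was also lost without the variance trend (0.0685).

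Col17a1 (cluster 6873516), an autoantigen of bullous pemphigoid, gave 2778 and 2860 in wild type, 3730 and 3681 in null, and 2172 and 2484 in rescue. Null was the high group and rescue the low one, with no overlap. The fall from null to rescue was -0.67 ± 0.08 (adjusted p = 0.00529) and stood in every fit. The rise in null over wild type was 0.39 ± 0.08 (adjusted p = 0.0250). It was lost with quantile normalization (0.0614), without the variance trend (0.0702), and without either wild-type (0.149 and 0.115) or null array (0.120 and 0.102). Rescue and wild type differed by -0.28 ± 0.08 (limma adjusted p = 0.0701), a difference called with the filter at the median cluster (0.0370) and with only single-symbol clusters (0.0358).

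Partners of these chains in the hemidesmosome did not all follow. Itga6, the α subunit of the laminin receptor there, went the way of Col17a1, from 3232 ± 75.0 to 4972 ± 110 in null and 3783 ± 129 in rescue. Its rise in null was 0.62 ± 0.06 (adjusted p = 0.00235) and its fall in rescue -0.39 ± 0.06 (adjusted p = 0.0123), the latter lost without null array 1 (0.0599) or null array 2 (0.0716). Itgb4, the β subunit, stood at 2689, 2790 and 2736 and was not called. Dst, which encodes a plakin that links the hemidesmosome to keratin, was 335 ± 5.60 in wild type, 446 ± 33.7 in null and 486 ± 3.23 in rescue. Its calls against wild type, in null (limma adjusted p = 0.0230) and rescue (limma adjusted p = 0.0104), were each lost without either wild-type array. The null call was also lost without null array 1 and without the variance trend (0.056), and the rescue call without rescue array 1.

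Col8a1 (cluster 6846468), a short-chain collagen found around vessels and in the cornea, gave 1572 and 1665 in wild type, 31.3 and 35.4 in null, and 30.7 and 28.8 in rescue. Wild type alone was high. The null level of 33.4 ± 2.90 was 2.06% of the wild-type 1619 ± 65.6, with a difference of -5.05 ± 0.09 (adjusted p = 8.36e-06). Rescue and null differed by -0.11 ± 0.09 (adjusted p = 0.520), and rescue lay -5.16 ± 0.09 from wild type (adjusted p = 4.32e-06). Both calls against wild type stood in every fit. Col8a2, its partner chain, lay between 54.2 and 68.1 on all arrays and was not called. Col10a1, the third short chain and a product of cartilage, was dim. It gave 15.5 and 15.9 in wild type, 31.1 and 28.9 in null, and 23.0 and 7.62 in rescue. Its differences, 0.54 ± 0.25 in null minus wild type and -0.60 ± 0.25 in rescue minus null, were not called. The latter was -0.96 without rescue array 1.

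Among the fibril-associated chains, which sit on the surface of fibrils, Col12a1 (cluster 6997197) gave 83.4 and 91.8 in wild type, 44.5 and 37.2 in null, and 63.3 and 63.3 in rescue. The lines did not overlap. The null level was 46.6% of wild type, a difference of -0.87 ± 0.12 (adjusted p = 0.00725), lost only without wild-type array 2 (0.0576). The rise in rescue by 0.48 ± 0.12 (adjusted p = 0.0476) was lost in 6 of 8 other fits, the replicate block among them (0.0772), and without any 1 of the 6 arrays (0.0846 to 0.193). Col16a1 (cluster 6917365) gave 177 and 164 in wild type, 138 and 134 in null, and 129 and 121 in rescue. It was called in rescue minus wild type (-0.41 ± 0.09, adjusted p = 0.0345), a call lost without any 1 of the 6 arrays (0.0665 to 0.164) and with only those 2 lines fitted (0.0668). The other 5 chains of the class, Col9a1, Col9a2, Col9a3, Col14a1 and Col20a1, were not called in any comparison.

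**Figure D3:**
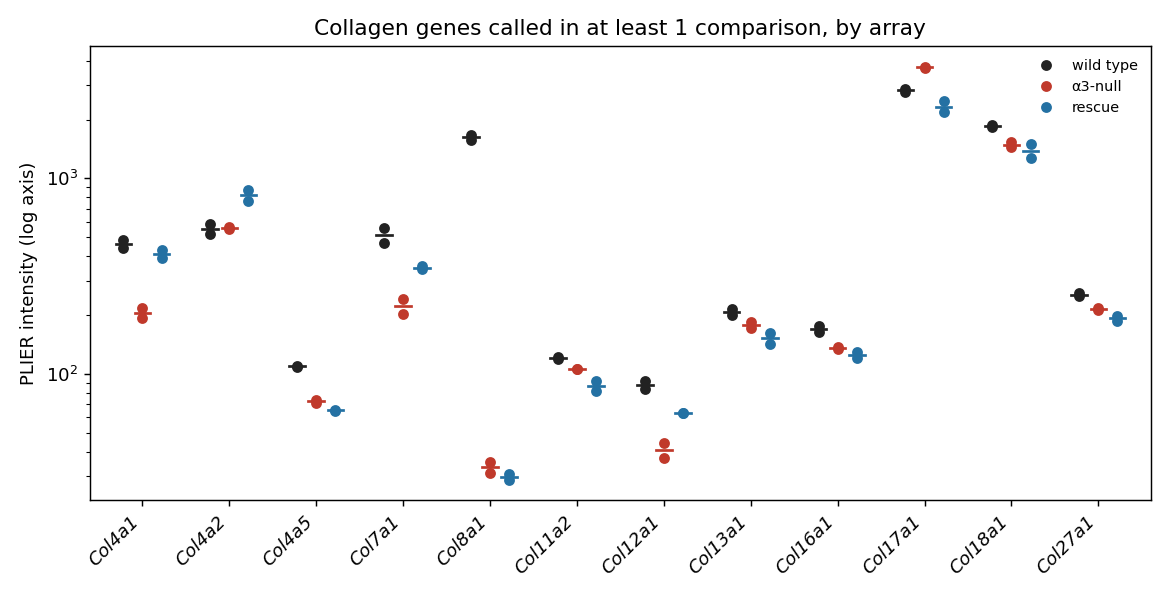
PLIER intensity (log axis) of the 12 collagen genes called in at least 1 comparison; each point is an array, each bar the mean of a line. Col8a1 is high in wild type alone, Col4a1, Col7a1 and Col12a1 are lowest in the null line, and Col17a1 is highest there.

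The multiplexins Col15a1 and Col18a1 are basement membrane proteoglycans, and the end of the Col18a1 chain is cut off as endostatin. Col18a1 (cluster 6775201) gave 1821 and 1866 in wild type, 1449 and 1529 in null, and 1272 and 1495 in rescue. Wild type was highest, and null and rescue overlapped. Rescue differed from wild type by -0.41 ± 0.09 (adjusted p = 0.0323), a call lost without either array of wild type or null or the first of rescue (highest adjusted p = 0.162), without the variance trend (0.0762) and with only those 2 lines fitted (0.0590). Null differed from wild type by -0.31 ± 0.09 (limma adjusted p = 0.0786). This difference was called with the filter at the median cluster (0.0392), with only those 2 lines fitted (0.0338) and with only single-symbol clusters (0.0376). Col15a1 (cluster 6913269) ranged from 112 to 136 with overlap between all lines.

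Of the transmembrane chains other than Col17a1, Col13a1 (cluster 6774371), found at cell-matrix contacts and the neuromuscular junction, gave 214 and 201 in wild type, 172 and 185 in null, and 162 and 142 in rescue. Its call in rescue minus wild type (-0.41 ± 0.10, adjusted p = 0.0446) was lost without any 1 of the 6 arrays (0.0666 to 0.192), without the variance trend (0.0689), with only those 2 lines fitted (0.0759) and with replicate number as a block (0.0662). Col23a1 and Col25a1 were not called.

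The 11 fibrillar chains held no call in null minus wild type or rescue minus null, beside 19.5% and 18.4% of clusters with a single symbol. All 11 had differences below 0 in null minus wild type, from -0.23 to -0.02, with none past the test. Median centring moved the differences of that comparison by 0.08 (median over all clusters). That is more than the smallest of these, so the shared sign depends on the scaling. In rescue minus wild type Col11a2 and Col27a1 were called, with 9 not (18.2% called, beside 18.5% of clusters with a single symbol). Col11a2 (cluster 6850001), a cartilage fibril chain, gave 122 and 119 in wild type, 106 and 106 in null, and 91.6 and 81.8 in rescue (-0.41 ± 0.10, adjusted p = 0.0416). Col27a1 (cluster 6914006) gave 260 and 250, 213 and 218, and 199 and 187 (-0.38 ± 0.08, adjusted p = 0.0296). Both calls were lost without any 1 of the 6 arrays (0.0763 to 0.166 for Col11a2, 0.0583 to 0.146 for Col27a1). They were also lost with only those 2 lines fitted (0.0816 and 0.0584) and with replicate number as a block (0.0620 and 0.0502), and that of Col27a1 without the variance trend (0.0526). The chains of type I collagen, the main protein of the dermis, lay at 197 to 241 for Col1a1 and 122 to 150 for Col1a2, and Col3a1 at 145 to 193. The 4 type VI chains measured, which make beaded filaments, and Col26a1 were not called in any comparison.

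Genes that make, bind or degrade collagen were then set beside the chains, from 4 lists with 114 genes of which 95 were measured. The lists were chosen with earlier results of these data known, and all their measured genes had a cluster with a single symbol. In null minus wild type 11 were higher and 24 lower, with a median of -0.09. The share called was 36.8%, beside 15.3% of all clusters and 19.5% of clusters with a single symbol. In rescue minus null 19 were higher and 6 lower (26.3%, beside 15.4% and 18.4%), with a median of 0.06. In rescue minus wild type 14 were higher and 14 lower (29.5%, beside 15.4% and 18.5%), with a median of -0.04. The 35 genes of the first comparison became 18 and 16 without wild-type arrays 1 and 2, and 22 and 21 without null arrays 1 and 2. The 25 of the second became 14 without null array 2, and the 28 of the third became 12, 10 and 13 without wild-type array 1, wild-type array 2 and rescue array 1.

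Of 31 genes of collagen biosynthesis, 5 were higher and 8 lower in null minus wild type (41.9% called). In rescue minus null 5 were higher and 2 lower (22.6%), and in rescue minus wild type 4 and 7 (35.5%). Clusters with a single symbol gave 19.5%, 18.4% and 18.5%, and all clusters 15.3%, 15.4% and 15.4%. Plod2, the lysyl hydroxylase that acts on the ends of collagen chains, gave 1129 and 1123 in wild type, 287 and 318 in null, and 710 and 634 in rescue. Null was lowest with rescue between, at differences of -1.84 ± 0.09 (adjusted p = 0.000122) and 1.11 ± 0.09 (adjusted p = 0.00128). P4ha2, a catalytic subunit of prolyl 4-hydroxylase, had the same order, at 1208 ± 52.8, 456 ± 10.7 and 795 ± 37.2. Pcolce2, an enhancer of procollagen trimming, went from 349 ± 4.20 to 89.8 ± 12.2 and 286 ± 44.4.

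Other genes of the list went other ways. P4ha1, the other main prolyl 4-hydroxylase subunit, was lowest in rescue, at 1293 ± 53.9, 1093 ± 57.5 and 786 ± 4.50, and its fall against null was lost without null array 2 (adjusted p = 0.0599). Fkbp14, a prolyl isomerase of the endoplasmic reticulum, was 93.7 ± 12.1 in wild type and fell below 16 on all 4 arrays of the null and rescue lines. Its call in null was lost with a pseudocount of 1 (adjusted p = 0.0554) or without wild-type array 2 (0.0503). Mia2, which acts in the export of large cargo from the endoplasmic reticulum, rose from 15.8 ± 3.91 to 94.1 ± 3.32 in null and stood at 77.9 ± 5.37 in rescue.

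Of 13 collagen receptors, 4 were called in each comparison (30.8%), beside 19.5%, 18.4% and 18.5% of clusters with a single symbol. By direction 1 was higher and 3 lower in null minus wild type, 3 and 1 in rescue minus null, and 2 and 2 in rescue minus wild type. Itga2, the α subunit of the collagen-binding integrin of keratinocytes, gave 735 and 859 in wild type, 85.6 and 101 in null, and 370 and 330 in rescue. The fall in null was -2.89 ± 0.12 (adjusted p = 7.19e-05) and the rise in rescue 1.75 ± 0.12 (adjusted p = 0.000895). Its partner Itgb1, which also pairs with α3, had its highest level in null, at 4014 ± 138, 7633 ± 13.7 and 5687 ± 272. Ddr2, a receptor tyrosine kinase for fibrillar collagen, gave 100 and 92.2 in wild type, 84.5 and 91.7 in null, and 654 and 592 in rescue, so that it was high in the rescue line alone (2.62 ± 0.10 above null, adjusted p = 0.000108). Ddr1, its epithelial relative, was not called. Adgrg1, an adhesion receptor that binds type III collagen, was 223 ± 11.1, 125 ± 8.56 and 160 ± 7.80 and fell in null by 0.76 on the log2 scale (adjusted p = 0.00495). The calls of Cd44, a hyaluronan receptor, in null minus wild type (-0.34, adjusted p = 0.0218) and rescue minus null (0.30, adjusted p = 0.0314) were lost without any 1 of the wild-type or null arrays and without the variance trend (0.0710 and 0.0911). The second was also lost without rescue array 1 (0.0936), with only those 2 lines fitted (0.0821), with replicate number as a block (0.0613) and with median centring, where the difference was 0.18 (0.125). The calls of Itgb1 in rescue were lost without either null array against null (0.0674 and 0.0659) and either wild-type array against wild type (0.0614 and 0.0520).

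Of 22 collagen- and gelatin-degrading enzymes and their inhibitors, 1 was higher and 7 lower in null minus wild type (36.4% called). In rescue minus null 7 were higher and 0 lower (31.8%), and in rescue minus wild type 5 and 1 (27.3%). The shares of single-symbol clusters were 19.5%, 18.4% and 18.5%. The interstitial collagenase gene Mmp13 gave 57.4 and 82.4 in wild type, 22.7 and 29.2 in null, and 128 and 105 in rescue. Its rise in rescue was 1.66 ± 0.19 (adjusted p = 0.00436), while its fall in null (-1.02 ± 0.19, adjusted p = 0.0175) was lost without wild-type array 2 (0.0844), null array 1 (0.0989) or null array 2 (0.0588). The stromelysin gene Mmp3 and the collagenase relative Mmp1b went from 198 ± 65.3 and 111 ± 12.6 in wild type to 20.4 ± 0.125 and 18.7 ± 5.86 in null, and to 156 ± 0.870 and 82.3 ± 7.66 in rescue. Mmp14, the membrane-bound collagenase, was 970 ± 49.9, 567 ± 70.6 and 632 ± 80.3, and rescue and null overlapped. Its call in null (adjusted p = 0.0116) was lost without wild-type array 1 (0.0637), wild-type array 2 (0.0806) or null array 2 (0.0595). Mmp10, another stromelysin gene, was 130 ± 22.3, 52.7 ± 12.5 and 87.6 ± 1.91, with a call in null (adjusted p = 0.0105) lost without wild-type array 2 (0.0669) or null array 1 (0.0541). Adam9, a membrane-bound protease, and Timp2, an inhibitor of metalloproteinases, were highest in rescue, Adam9 at 1473 ± 52.8, 1743 ± 92.4 and 2793 ± 2.73 and Timp2 at 2301 ± 2.51, 2373 ± 41.9 and 3465 ± 142. Mmp1b, Mmp3 and Mmp10 lie on chromosome 9, as do Mmp1a, Mmp7 and Mmp8, which were not called. Col7a1, Col12a1, Plod2 and Pcolce2, also lower in null, lie on that chromosome too. So do Col5a3, Crtap and Ppib, not called in null minus wild type. What part the shared chromosome has was not tested. Ctss, a cathepsin, stood at 38.2 ± 1.22, 49.7 ± 2.20 and 67.1 ± 9.08, and its call in rescue minus wild type (0.61, adjusted p = 0.0286) was lost with only those 2 lines fitted (0.0577) and without any 1 array (up to 0.135) other than rescue array 2.

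Of 29 collagen-binding and basement membrane partners, 4 were higher and 6 lower in null minus wild type (34.5% called). In rescue minus null 4 were higher and 3 lower (24.1%), and in rescue minus wild type 3 and 4 (24.1%). The shares of single-symbol clusters were 19.5%, 18.4% and 18.5%. Sparc, a matrix protein that binds collagen and is needed for type IV collagen in basement membranes of flies, gave 3461 and 3349 in wild type, 352 and 375 in null, and 4049 and 3595 in rescue. Null alone was low (3.34 ± 0.08 between rescue and null, adjusted p = 3.84e-05). Fbln2, a matrix linker protein, was also lowest in null, at 2454 ± 83.1, 528 ± 15.9 and 2241 ± 43.3. Fn1 and Fbln1 fell in null and were not called in rescue minus null, and their null levels were 32.9% and 44.2% of wild type. Tgfbi, a collagen-binding adhesion protein, fell in rescue, from 289 ± 41.0 to 122 ± 10.2.

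**Figure D4:**
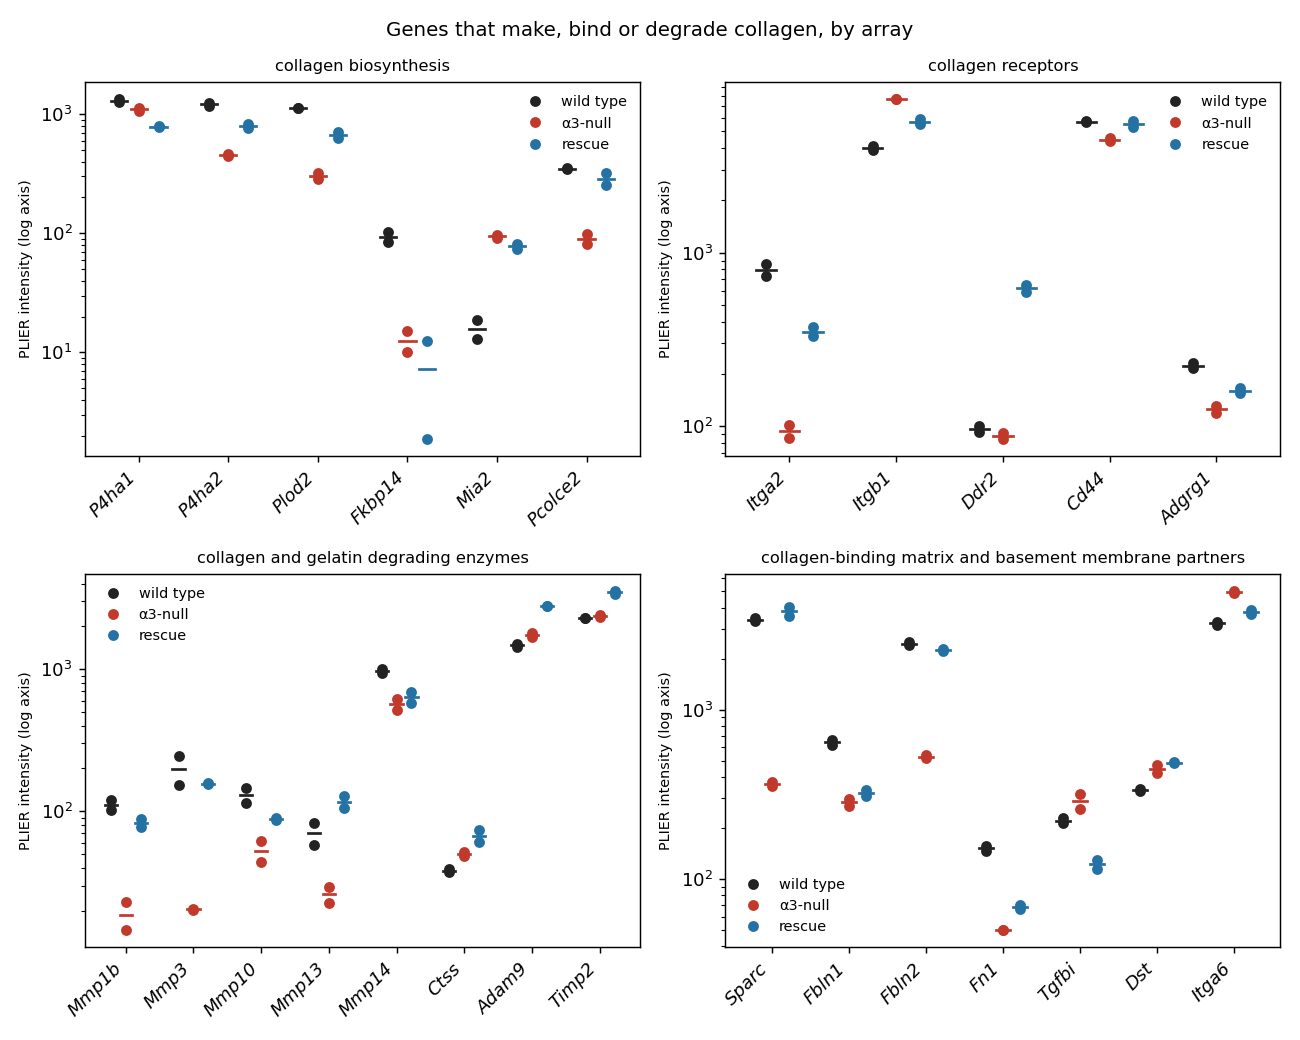
PLIER intensity (log axis) of the genes named from the 4 lists; each point is an array, each bar the mean of a line. Plod2, P4ha2, Pcolce2, Itga2, Mmp1b, Mmp3, Sparc and Fbln2 are lowest in the null line, and Ddr2 is high in the rescue line alone.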

How the data were processed

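Each of 6 arrays (2 per line) gave 1 value per transcript cluster. The authors deposited an intensity for each, summarized over core exons by PLIER per the labels. The submitters' processing notes list Affymetrix Expression Console, and the series' design text gives the Exon Array Computational Tool. Not given in the sources used here: how background was corrected and how arrays were scaled to each other. There were no detection p-values. The values ran on a linear scale, with a median of 96.6 to 108 per array, and the number of arrays limits their precision. Symbols came from the platform annotation, of which 14941 of 14996 single-symbol clusters matched RefSeq (GRCm38.p6) by Entrez identifier and 0 changed.

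All 23332 clusters were fitted as log2(intensity + 16) with 1 mean per line in limma 3.58.1 (R 4.3.3; eBayes with an intensity trend, 3 residual and 3.00 prior degrees of freedom), two-sided, with Benjamini-Hochberg adjustment within each comparison and no filter. The procedure was run on simulated independent values whose spread was drawn from its own fit. Such values cannot check differences between lines or the scaling of arrays. Of the 39 chains, 18 had a mean at or above that of the median cluster (105) and would pass the filter used as an alternative. The chains, classes and lists were chosen with earlier results of these data known. Named with values were every called chain, 10 basement membrane chains, up to 4 called genes per list and comparison by smallest adjusted p, Itga3, and, of the 5 nearest measured genes on each side of the 3 type IV gene pairs, those of the Col4a1 and Col4a2 pair that rose and some of the rest, which are otherwise given as counts; other genes with values (Itgb4, Ddr1, Vim, Myo16 and uncalled chains such as Col1a1) were named after their values were seen. Alternatives were pseudocounts of 1 and 64, quantile normalization, median centring, the filter, no variance trend, a fit restricted to the 2 lines at issue, a block for replicate number, only single-symbol clusters, and leaving out each array.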

Additional observations from a re-analysis of the deposited data

How the results depend on the processing

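Of the calls on collagen chains, those of Col4a1 and Col7a1 in null minus wild type, Col4a1 and Col17a1 in rescue minus null and Col8a1 in both comparisons with wild type stood under each alternative and with each array left out; no difference called for the genes named above changed sign. The sign changed in 57 of 1692 refits of chain differences, each uncalled in both fits and at sizes up to 0.11, and in 57 of 2511 refits for the other named genes, likewise uncalled in both, at sizes up to 0.33. Chains called in rescue minus null went from 5 to 3 with median centring, which shifted the median of all clusters in that comparison by -0.12. In rescue minus wild type the 9 chains became 4 when only those 2 lines were fitted. They became 14 when only clusters with 1 symbol were fitted, with Col9a2, Col11a1, Col12a1, Col17a1 and Col23a1 gained. That fit re-estimated the variance trend and also left fewer clusters in the adjustment. Which of these moved the count was not tested. Without the variance trend the calls over all clusters went from 3578 to 2306 in null minus wild type and from 3585 to 2277 in rescue minus null, and with only the 2 lines fitted to 2343 in the latter; the cause was not tested. With an array left out, the chains called were 3 to 7, 2 to 4 and 1 to 4 in the order of comparisons used above, all clusters called 1174 to 3524, 1304 to 2689 and 1088 to 2819, and list genes called 16 to 34, 14 to 24 and 10 to 23. The share of higher calls over all clusters moved from 63.4% to 49.9% with quantile normalization and 40.9% with median centring in rescue minus null, from 55.4% to 53.2% and 68.1% in null minus wild type, and from 67.2% to 53.5% and 60.0% in rescue minus wild type. With replicate number as a block, 6, 4 and 6 chains were called. Deviations of same-numbered arrays correlated at -0.02 to 0.05. With 2 arrays per line this cannot tell whether same-numbered arrays were handled together, and the labels give no batch. The absence of detection values limits what can be said of dim chains.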
